A study of Mus musculus with 8 samples.

Results

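Enteroendocrine cells are the hormone-secreting cells scattered through the intestinal epithelium, and the 10 genes described here encode most of their classical products: Tac1, Tph1, Gip, Cck, Gcg, Sct, Nts, Pyy, Ghrl and Sst. They were taken by symbol from the 27998 genes of the deposited matrices, and all 10 were found. Crypts of the small intestine of adult mice had been dissociated, and living epithelial cells, gated on the surface protein EpCAM, were profiled by single-cell RNA sequencing. The controls, labelled WT, were H11 i.enh mice, which carry a LacZ-iCre reporter driven by the core of the enhancer with a Shh promoter at the H11 locus, so that they were not plain wild-type animals. The KO animals were Ctnnb1 Δi.enh mice, homozygous for a deletion of ieCtnnb1, an intestinal enhancer upstream of Ctnnb1, the gene of β-catenin, in every cell of the body. Per the study the mice were females of 10 weeks on a C57BL/6 background, with several mice pooled into each library. The labels list 4 samples in each group, but the values came as 1 matrix per group and no cell could be assigned to a labelled sample. There was thus no replicate error and no test of KO against WT, and the 95% intervals given below cover counting error only.

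Each enteroendocrine cell makes one or a few hormones and stores them in granules together with granins such as chromogranin A and B (Chga and Chgb). The combination depends on the position along the gut, on the position along the crypt-villus axis and on the age of the cell. Cells that make serotonin are called enterochromaffin cells, and in the mouse intestine many of them also make the tachykinin encoded by Tac1. The β-catenin branch of Wnt signalling maintains the stem cells of the crypt, from which all of these cells arise.

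A cell was counted as endocrine when Chga, Chgb or any of the 10 genes made up at least 0.5% of its unique molecular identifiers (UMIs, each standing for a captured transcript). This rule selected 242 of 13095 WT cells (1.85%, exact binomial interval 1.62 to 2.09) and 96 of 8658 KO cells (1.11%, 0.899 to 1.35). Of them, 119 WT and 37 KO cells were selected by a granin alone. Between 0.5% and 0.6% lay 11 WT and 8 KO cells, and between 0.4% and 0.5%, just outside, 16 and 7. Of the 8 enteroendocrine markers listed beside the rule, Chga, Chgb, Neurod1, Scg5, Scg2, Cpe, Pcsk1 and Rfx6, the summed level was 25748 CPM in WT and 8699 CPM in KO endocrine cells, against 43.9 and 34.6 CPM in all other cells. CPM is the share of a gene in the summed UMIs of a set of cells, on the scale on which 1% is 10000. Since Chga and Chgb are part of the rule and of this list, the gap is a check of the selection and not a finding.

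The endocrine cells of the groups differed in depth. The median was 2788 UMIs per cell in WT (range 584 to 29014) and 11600 in KO (593 to 39747), while the other cells had medians of 6768 and 8669. Cells under 2000 UMIs made up 71 of the WT and 9 of the KO endocrine cells, and cells over 10000 UMIs made up 25 and 53. For this reason shares of cells were also computed after every endocrine cell had been thinned to 2000 UMIs, with shallower cells left out. Paneth and goblet cell products were lower in KO endocrine cells as well. The 6 Paneth cell markers summed to 59771 CPM in WT and 15856 CPM in KO endocrine cells (203340 and 128840 CPM in all other cells), and the 7 goblet cell markers to 17678 and 4414 CPM (26475 and 19885 CPM). All 6 Paneth and all 7 goblet markers were at least 2-fold lower in KO endocrine cells, beside 13.8% of the 5092 genes tested there. The 7 enterocyte markers summed to 2132 CPM in WT and 2291 CPM in KO endocrine cells. The 5 immune markers summed to 618 and 826 CPM, nearly all of it Cd74 (log2 ratio 0.42, 0.27 to 0.57), and among them Ptprc, Cd3e and Cd3g had no UMI. Markers of the distal small intestine summed to 587 CPM in WT and 2863 CPM in KO cells outside the endocrine set, and to 830 and 286 CPM within it. The part of depth, of these markers and of the gut segment in the results that follow was not tested. Ctnnb1 itself was at 119 CPM in WT and 91.8 CPM in KO over all kept cells (log2 ratio -0.37, interval -0.41 to -0.34), and at 167 and 150 CPM in endocrine cells (-0.15, -0.46 to 0.16).

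Endocrine cells were a smaller share of the KO cells, with a log2 ratio of KO to WT of -0.74 (-1.09 to -0.39). Among cells of at least 2000 UMIs the ratio was -0.15 (-0.54 to 0.23), an interval that includes 0. A lower share of endocrine cells was therefore not detectable once shallow cells were left out. This floor removed 71 WT and 9 KO endocrine cells. Kept cells fell from 13095 to 9929 in WT and from 8658 to 5623 in KO, a larger loss in proportion in KO. Both parts of the share thus moved with the floor.

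Most endocrine cells were led by 1 of the 10 genes, meaning that 1 gene had more UMIs in the cell than each of the other members. The kit reads the end of each transcript, so a UMI count is not scaled by transcript length and can be ranked within a cell. Tac1, the precursor of substance P, led 96 WT cells (39.7%, 33.5 to 46.1) and 36 KO cells (37.5%, 27.8 to 48.0). Secretin (Sct), which stimulates bicarbonate secretion by the pancreas, led 51 WT cells (21.1%, 16.1 to 26.8) but 4 KO cells (4.17%, 1.15 to 10.3). Cholecystokinin (Cck), the fat-induced hormone that contracts the gall bladder, led 20 WT and 18 KO cells. Gip, an incretin made in K cells, led 16 and 14. The other genes each led at most 9 cells in either group: Gcg, the precursor of the glucagon-like peptides, 9 and 3, somatostatin (Sst), 6 and 5, neurotensin (Nts), 5 and 3, ghrelin (Ghrl), 3 and 6, and peptide YY (Pyy), 2 and 2. Tph1, the enzyme that starts serotonin synthesis outside the brain, led 8 WT cells and no KO cell. In 11 WT and 4 KO cells members were tied, and in 15 and 1 none had a UMI.

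**Figure D1:**
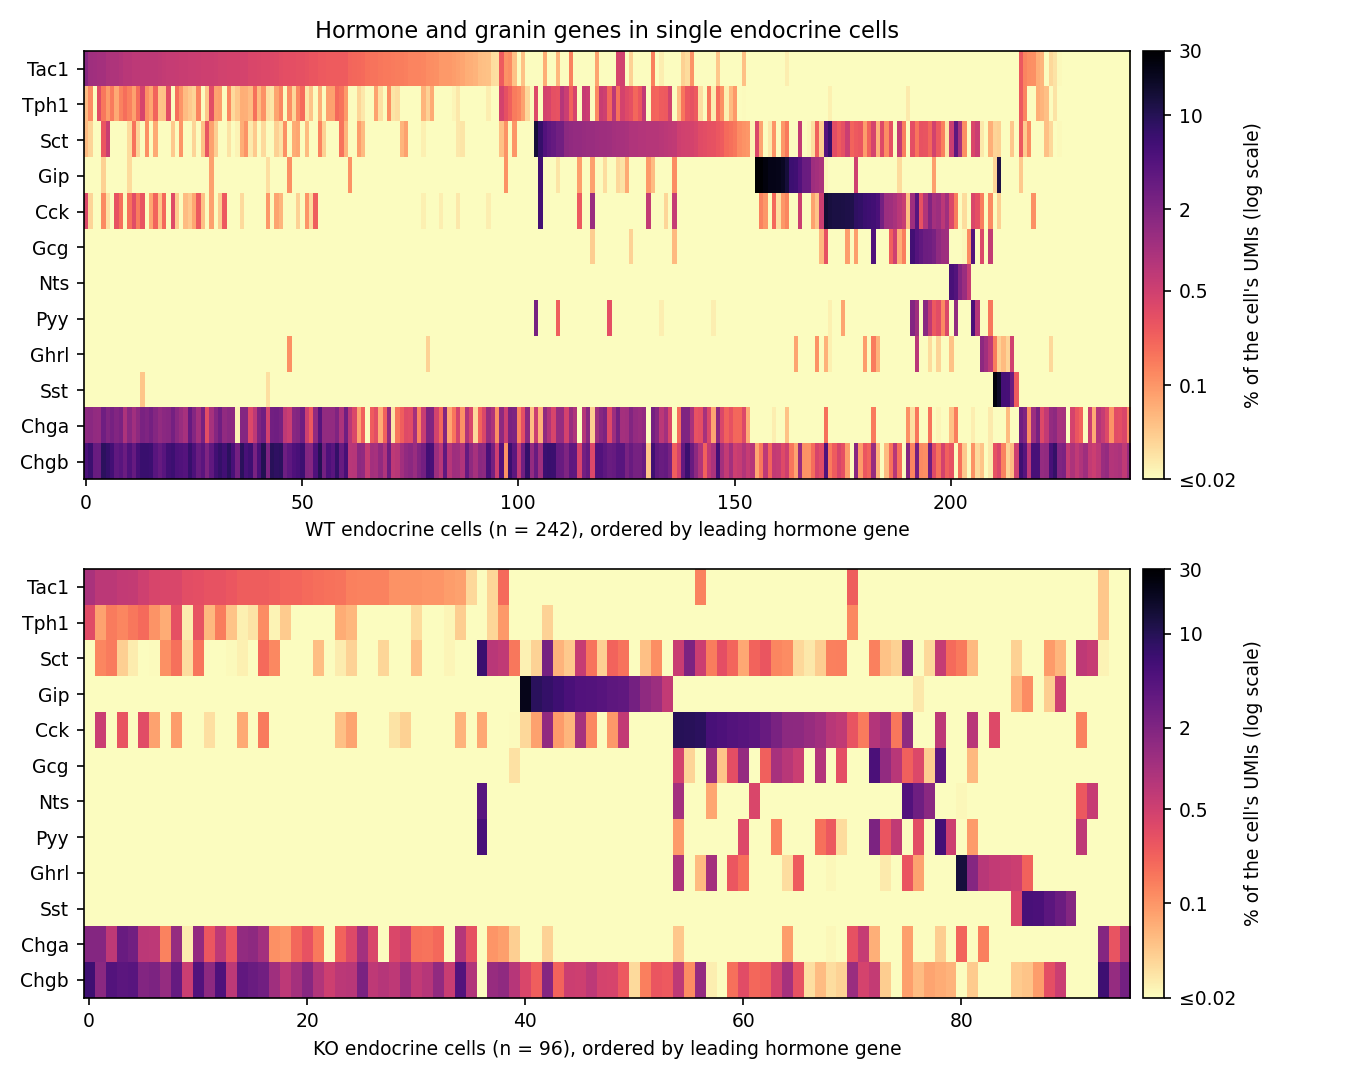
Share of each cell's UMIs (percent, log colour scale, values of 0.02% or less in the palest colour) for the 10 hormone genes and both granins, with 1 column per endocrine cell, WT above (242 cells) and KO below (96 cells), ordered by the leading hormone gene; tied cells and cells with none stand at the right. The Sct-led block of 51 WT cells carries Tph1 and Chga and has 4 KO cells beside it. The Gip-led and Cck-led blocks hold 16 and 20 WT cells (6.61% and 8.26% of the WT cells). In KO they hold 14 and 18 cells (14.6% and 18.8% of the KO cells).

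In cells led by a member other than Tac1 or Tph1, with tied cells left out, 366 of the 368 WT Tph1 UMIs lay in the 51 Sct-led cells. In them Tph1 had a UMI in 42 of 51 cells and 366 UMIs in all (2076 CPM), Chga had a UMI in 47 cells (7555 CPM) and Chgb in all 51 (22365 CPM), while Tac1 had a UMI in 15 cells (312 CPM). Cartpt, which encodes the CART peptide of neurons and some endocrine cells, had a UMI in 22 of the 51. The 4 Sct-led KO cells held 22 Tph1 UMIs in 2 cells, 35 Chga UMIs and no Cartpt UMI. Among cells of at least 2000 UMIs there were 40 Sct-led cells of 9929 in WT and 3 of 5623 in KO, a log2 ratio of the share of -2.92 (-5.25 to -1.27), close to that without a depth limit (-3.08, -5.01 to -1.63). The ratio thus stayed with this floor, but a floor does not match depth. The median over all Sct-led cells was 2914 UMIs in WT and 12828 UMIs in KO. Of these cells, 34 of 51 in WT and 3 of 4 in KO had a member at 0.5%, and the others were selected by a granin alone. Cells with Sct at or above 0.5% numbered 44 in WT and 12 in KO. The log2 ratio of their share of kept cells was -1.28 (-2.33 to -0.33). Goblet markers were at 24355 CPM in the WT and 2089 CPM in the KO Sct-led cells, and their part in the difference was not tested.

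The lower Tph1 level of KO lay in these cells more than in the Tac1 cells. Over all endocrine cells Tph1 was at 603 CPM in WT (557 to 653) and 182 CPM in KO (158 to 208), so that the log2 ratio came to -1.73 (-1.96 to -1.51). In cells led by Tac1 or Tph1 it was at 535 CPM in WT (231 UMIs, 104 cells) and 466 CPM in KO (182 UMIs, 36 cells), a ratio of -0.20 with an interval that includes 0 (-0.49 to 0.09). In cells led by another member it was at 699 CPM in WT (368 UMIs, 112 cells) and 39.99 CPM in KO (31 UMIs, 55 cells), a ratio of -4.13 (-4.71 to -3.60). Per endocrine cell the mean Tph1 count was 2.54 UMIs in WT and 2.24 UMIs in KO, where cells were deeper. It was 2.22 and 5.06 UMIs in cells led by Tac1 or Tph1, and 3.29 and 0.564 UMIs in cells led by another member. The members that lead a cell define these sets, so these values describe where the UMIs lay. Tac1 itself differed little within the cells led by Tac1 or Tph1, at 2620 CPM in WT and 2171 CPM in KO (-0.27, -0.40 to -0.14).

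The rule itself used the limit of 0.5%, so the cells above it for Tph1 are a description. At the limit of 0.5% of UMIs there were 7 WT cells, with 10 to 33 Tph1 UMIs each (0.537% to 0.793%). No KO cell reached it, and the exact interval of that share went up to 3.77% of the 96 cells. The interval of the log2 ratio of these shares reached 0.07 over kept and 0.81 over endocrine cells, so a difference in their number was not detectable. All 7 were also at or above the limit for Sct, and none had Tph1 and Tac1 both above it. The highest KO cell reached 0.356%, with Tac1 as its leading gene. At any UMI, 96 WT and 37 KO cells had both Tph1 and Tac1, whereas 31 WT cells and 1 KO cell had Tph1 and Sct without Tac1. After thinning to 2000 UMIs, Tph1 had a UMI in 90 of 171 WT and 22 of 87 KO cells. Of those, 67 WT cells (74.4%) and 21 KO cells (95.5%) also had a Tac1 UMI, and 58 (64.4%) and 10 (45.5%) a Sct UMI. Cartpt UMIs were found in 28 WT endocrine cells, 27 of which had Tph1, 26 Sct and 16 Tac1, and in 2 KO endocrine cells.

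**Figure D2:**
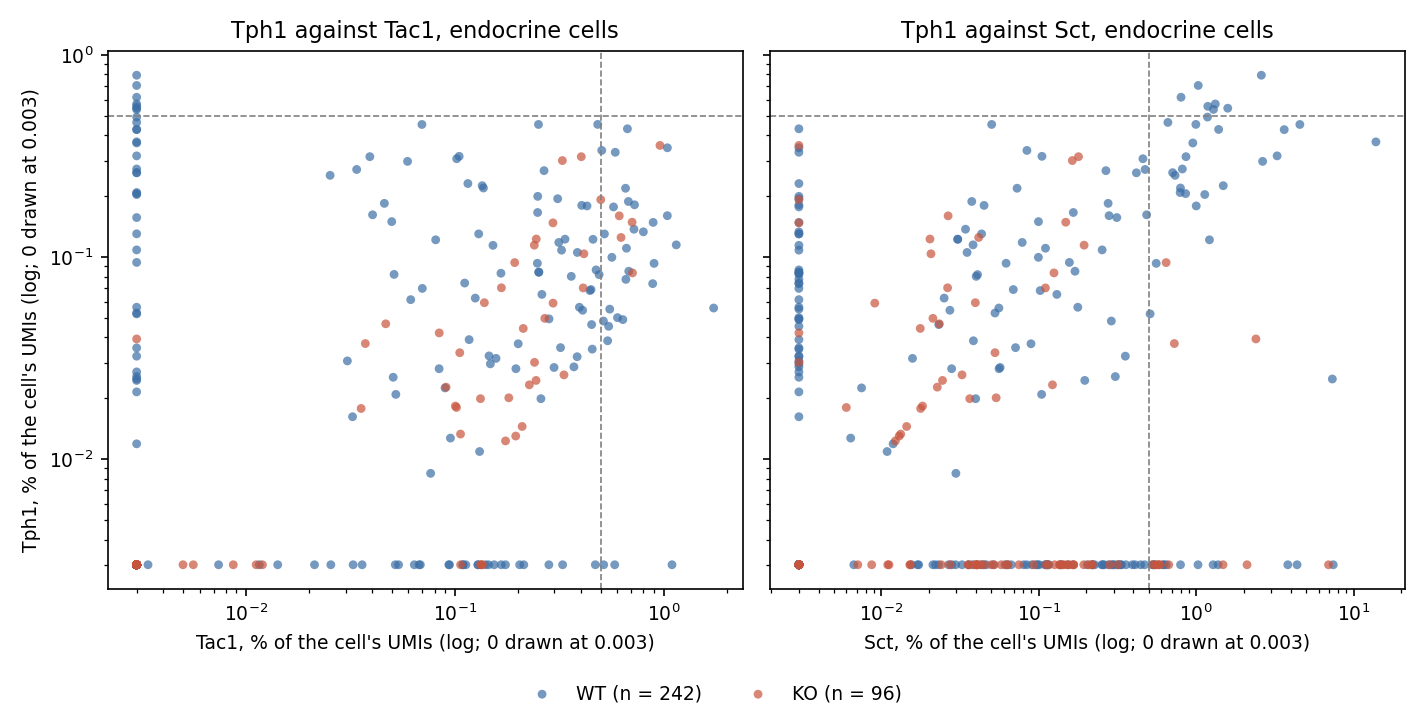
Tph1 against Tac1 (left) and against Sct (right), as percent of each cell's UMIs on log axes, with 1 point per endocrine cell (WT blue, 242 cells, KO red, 96 cells), values of 0 drawn at 0.003% and the limit of 0.5% dashed. At the upper right of the Sct panel the 7 cells above both limits are all WT, while 37 of the 38 KO cells with a Tph1 UMI also have Tac1.

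Chga and Chgb were higher in WT cells at or above the limit for Tac1 or Tph1 than in those for Sct, and lower again in Cck, Gip and Sst cells. In WT cells positive for Tac1 Chga was at 17144 CPM and in those positive for Tph1 at 12365 CPM, against 7637 CPM in Sct, 200 CPM in Cck, 72.7 CPM in Gip and 114 CPM in Sst cells. Chgb was at 50534 CPM in the Tac1, 30783 CPM in the Tph1 and 24143 CPM in the Sct cells, and at 5226, 3666 and 1249 CPM in Cck, Gip and Sst cells. In KO, Chga was at 18138 CPM in the 5 cells positive for Tac1 and 509 CPM in the 12 positive for Sct. Over all endocrine cells Chga was at 5248 CPM in WT and 1283 CPM in KO (-2.03, -2.12 to -1.95) and Chgb at 18883 and 6637 CPM (-1.51, -1.55 to -1.47). Both granins are part of the rule that chose these cells, so their ratios in endocrine cells are a description. Over all kept cells the ratio was -1.07 for Chga (-1.14 to -1.01) and -1.02 for Chgb (-1.05 to -0.99). Within cells led by Tac1 or Tph1 the ratios were -1.31 and -1.16, and in cells led by another member -3.87 and -1.72. The mean Chga count in cells led by Tac1 or Tph1 was 33.3 UMIs per WT cell and 35.0 UMIs per KO cell, so there the lower CPM stood beside a higher total per KO cell. Tac1 at or above 0.5% was found in 30 WT cells, with 4 to 32 UMIs, and in 5 KO cells, with 15 to 38. Over all endocrine cells Tac1 was at 1187 CPM in WT and 772 CPM in KO (-0.62, -0.75 to -0.50), and over all kept cells at 15.1 and 14.4 CPM, where the interval of the ratio included 0 (-0.07, -0.16 to 0.03).

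Of the 10 genes, 1 was at least 2-fold higher and 2 were at least 2-fold lower in KO endocrine cells. Among all 5092 genes with at least 50 UMIs in these cells, 8.42% were at least 2-fold higher and 13.8% at least 2-fold lower, so neither count stands apart from the background. The median log2 ratio was 0.10 over the 10 genes and -0.02 over all genes tested. The higher gene was Ghrl and the lower ones were Tph1 and Sct. Over all kept cells, where the choice of endocrine cells plays no part, Ghrl was again the gene past 2-fold upward and Tph1 the gene past 2-fold downward, beside 3.94% and 7.37% of 12767 genes. There the median ratio was 0.42 for the 10 genes and -0.05 for all genes, and 7 of the 10 had a ratio above 0.

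**Figure D3:**
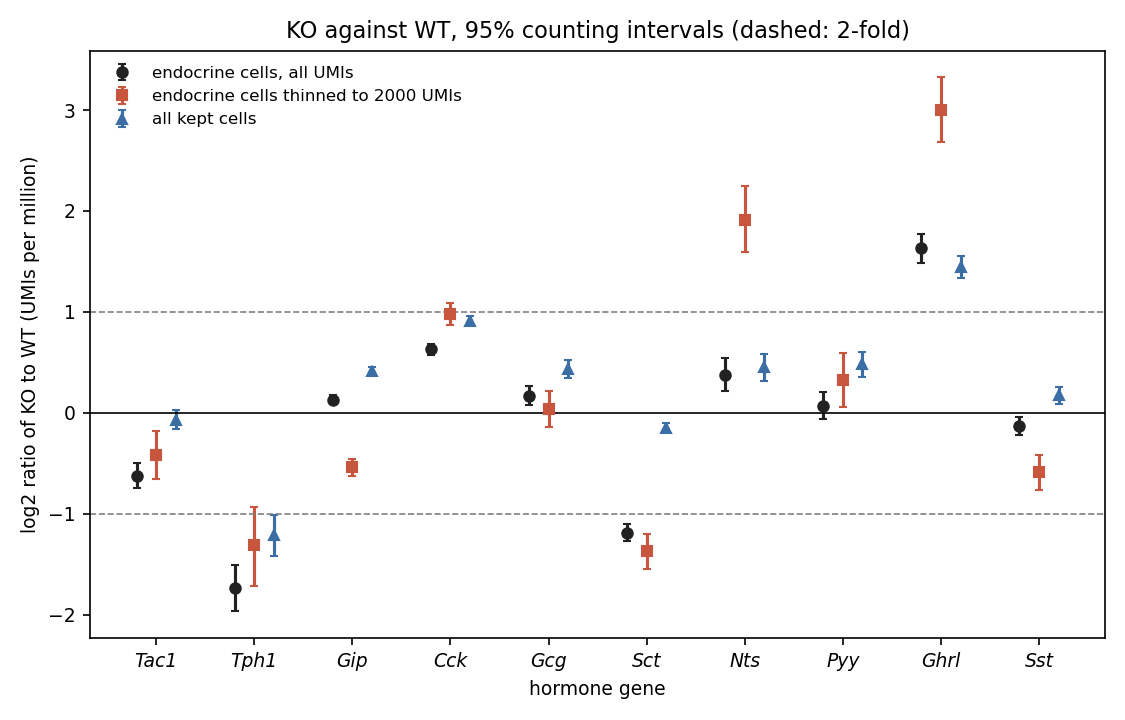
Log2 ratio of KO to WT in CPM for each hormone gene, in endocrine cells with all UMIs (black circles), in endocrine cells thinned to 2000 UMIs (red squares) and in all kept cells (blue triangles), with 95% counting intervals and dashed lines at 2-fold. Ghrl lies above and Tph1 below the 2-fold lines in all 3, Sct lies near 0 over all kept cells (-0.15), and Nts moves from 0.38 to 1.91 on thinning.

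Sct was at 3205 CPM in WT and 1410 CPM in KO endocrine cells (-1.18, -1.27 to -1.10), but over all kept cells the ratio was -0.15 (-0.19 to -0.10). The gene was at or above 0.5% in 44 WT and 12 KO cells. Its mean per endocrine cell was 13.5 UMIs in WT and 17.4 UMIs in KO, so the lower CPM again stood beside deeper KO cells. Sct differed from the other members in that most of its UMIs lay outside the endocrine cells, which held 32.6% of them in WT and 20.7% in KO. For the other 9 genes that share was 53.0% to 85.6% in WT and 54.0% to 89.5% in KO. In the 100 cells richest in goblet markers, thinned to 2000 UMIs, Sct had a UMI in 51.5% of WT cells (41.3 to 61.7) and 39.8% of KO cells (29.5 to 50.8), with medians of 4352 and 8772 UMIs before thinning. In the 100 cells richest in Paneth markers it was 11 of 100 and 6 of 100 cells, and in those richest in enterocyte markers 7.07% and 14.3%. The cells richest in tuft markers stood between, at 24.5% of 49 WT and 19.2% of 52 KO cells left after thinning. Their lower cut was 0.217% and 0.0974% of UMIs from tuft markers, against 40.3% and 21.8% from goblet markers for the goblet-rich cells. They are thus not a comparable set of tuft cells. The goblet-rich share lay outside the intervals of the Paneth-rich and enterocyte-rich cells in both groups. The part of free RNA was not tested. Unthinned, 74.0% of goblet-rich WT and 72.0% of KO cells had a Sct UMI. The other members were found in at most 5.68% of thinned goblet-rich cells.

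**Figure D4:**
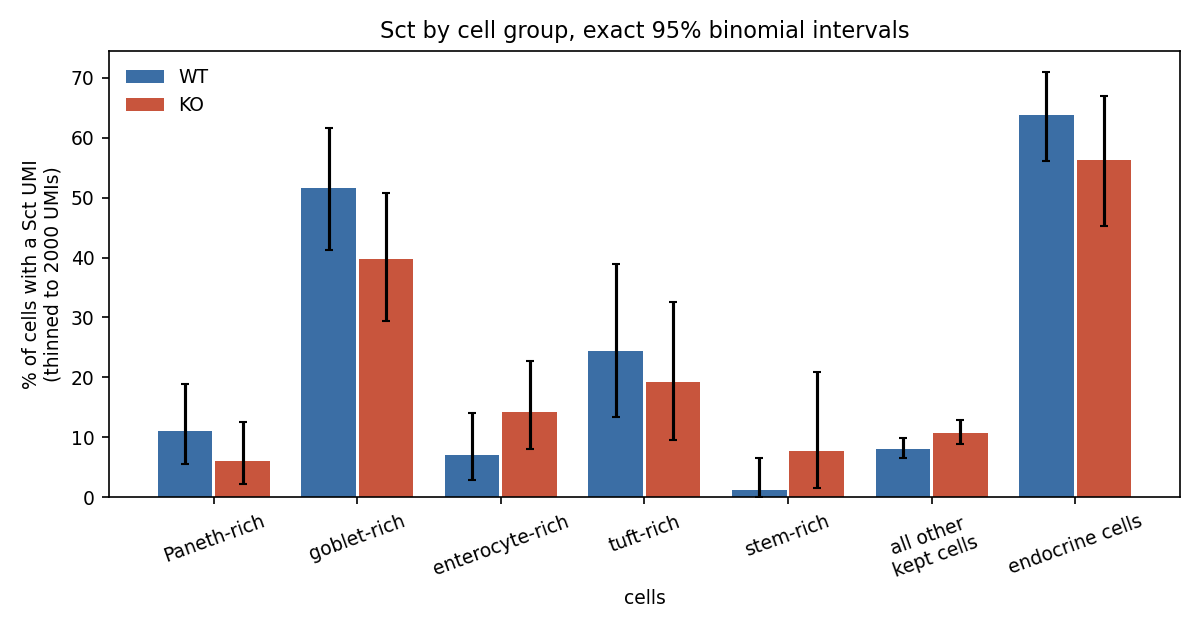
Percent of cells with a Sct UMI after thinning to 2000 UMIs, in the 100 cells richest in each marker list, in all other kept cells (1000 of them thinned) and in endocrine cells, for WT (blue) and KO (red), with exact binomial 95% intervals. Goblet-rich cells (51.5% and 39.8%) stand above the Paneth-rich (11 and 6 of 100 cells) and enterocyte-rich cells, and the endocrine cells were partly chosen on Sct itself.

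Ghrl, whose product raises appetite and growth hormone, was at 502 CPM in WT and 1556 CPM in KO endocrine cells (1.63, 1.49 to 1.78). It rested on few cells. The 4 WT cells at or above the limit held 22 to 230 Ghrl UMIs, and the richest of them 45.0% of all WT endocrine Ghrl UMIs. The 8 KO cells held 73 to 618 UMIs, and the richest, at 13.4% of its own UMIs, 33.6%. The counts of cells, 4 of 13095 and 8 of 8658, gave a log2 ratio of 1.60 with an interval from -0.30 to 3.78, which includes 0. As shares of the endocrine cells, 4 of 242 and 8 of 96, the ratio was 2.33 (0.43 to 4.52). After thinning the log2 ratio of the Ghrl level was 3.0 (2.69 to 3.32). The richest KO cell had 4595 UMIs in all, fewer than any other of the 8. A UMI of Ghrl was found in 9.36% of thinned WT and 20.7% of thinned KO endocrine cells, against 0.4% in the other cells of both groups. Gm26982, 1 of the annotated genes on the opposite strand of Ghrl (chr6:113716119-113719880, GRCm38), had 3 and 1 UMIs in WT and KO endocrine cells.

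The fat- and protein-sensing hormones were within 2-fold in endocrine cells with all UMIs. Cck was at 4881 CPM in WT and 7546 CPM in KO endocrine cells (0.63, 0.58 to 0.68), found at or above the limit in 33 and 25 cells. The Cck ratio was 0.98 after thinning (0.88 to 1.09). In cells of 2000 to 10000 UMIs it was 1.16 (1.08 to 1.25), past 2-fold. Among cells of 2000 UMIs or more, Cck led 10 WT and 17 KO cells (log2 ratio of the share 1.59, 0.38 to 2.88), whereas without that limit the interval included 0 (0.44, -0.56 to 1.44). Gip was at 8543 and 9365 CPM (0.13, 0.09 to 0.17), in 18 WT cells with a median of 344 UMIs of Gip and 15 KO cells with 798. The richest WT cell had 34.7% of its UMIs from Gip. The sign of the Gip ratio was not stable, at -0.54 (-0.62 to -0.45) after thinning. Gcg was at 1671 and 1882 CPM (0.17, 0.08 to 0.26), in 12 WT and 10 KO cells of 46 to 200 and 91 to 372 UMIs.

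Pyy, a brake on gut motility from the distal gut, was at 787 CPM in WT and 828 CPM in KO, with an interval of the ratio that included 0 (0.07, -0.06 to 0.21). It was at or above the limit in 8 WT and 6 KO cells, and a single KO cell held 41.9% of the KO UMIs. Nts, a peptide of the distal small intestine, was at 522 and 679 CPM (0.38, 0.22 to 0.54) and in 5 and 6 cells, which held nearly all of it: the 5 richest cells carried 99.4% of the UMIs in WT and 91.7% in KO. Sst, which inhibits the release of other hormones, was at 1974 and 1804 CPM (-0.13, -0.22 to -0.04), and the 5 richest cells carried 98.4% and 99.5% of the UMIs. The 5 WT cells at or above the limit had 301, 304, 310, 427 and 634 Sst UMIs. The 5 KO cells at or above it had 11, 189, 296, 548 and 989, so the groups overlapped. The KO cell with 11 was not among the 5 richest, since a Ghrl-led KO cell below the limit held 102 Sst UMIs. For these genes the intervals of the CPM count UMIs and not cells, and the cell numbers set the precision.

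Hormone genes were found together in some combinations and not in others. Of the 45 possible gene pairs, 15 were seen at the limit of 0.5% in at least 1 WT cell and 17 in at least 1 KO cell. In both groups 12 were seen, in neither 25, in WT alone 3 and in KO alone 5. Tph1 with Sct, in 7 cells, was among those of WT alone. The most frequent was Cck with Gcg, in 9 of 12 WT and 9 of 10 KO Gcg cells, or 9 of 33 and 9 of 25 Cck cells. Cck with Sct followed with 9 WT and 7 KO cells. Pyy was found with Gcg in 5 WT and 3 KO cells, with Cck in 4 and 2, and with Sct in 3 and 3. Nts was found with Sct in 3 of 5 WT and 4 of 6 KO Nts cells. Gip was found with Cck in 3 cells of each group and with Sct in 2 of each. At this limit Sst was found with a single other member, Gip, in 1 cell of each group. Tac1 was found at this limit with Sct in 1 WT cell and with Cck in 1 KO cell. After thinning, with any UMI counted, 20 of 21 WT and 18 of 19 KO cells with Gcg also had Cck, and 10 and 12 of them Pyy. Of the cells with Tac1, 50 of 87 in WT and 18 of 38 in KO had Sct, and 26 and 13 had Cck. Gip was found in 6 of these WT cells, Pyy in 2, and Gcg, Ghrl and Sst in 1 each, while of the 38 KO cells 1 had Ghrl and none Gip, Gcg, Nts, Pyy or Sst. Of the cells with Sst, 5 of 7 in WT and 2 of 5 in KO also had Ghrl.

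**Figure D5:**
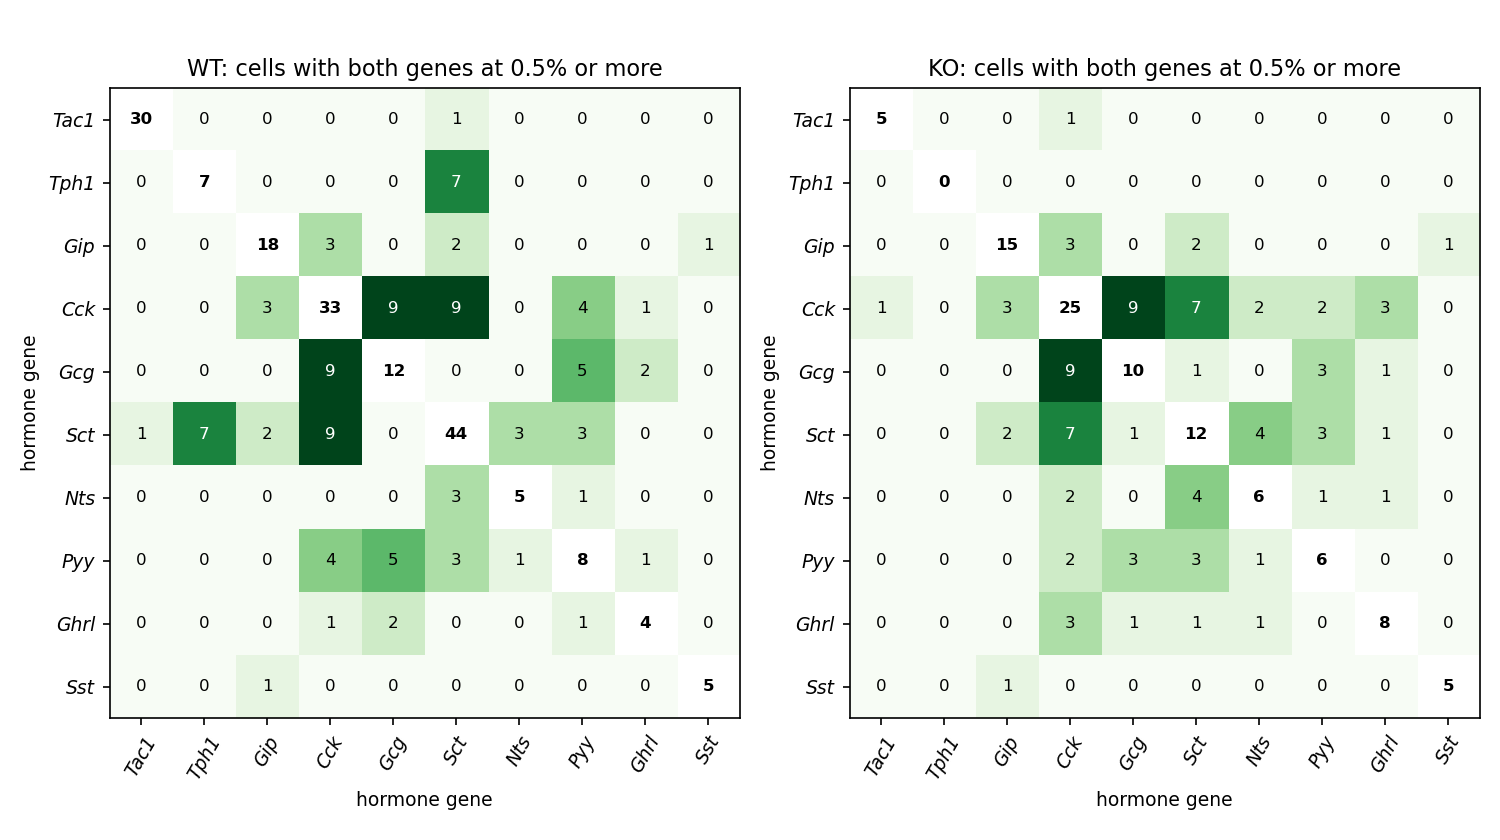
Number of cells in which both genes of a pair made up at least 0.5% of UMIs, in WT (left) and KO (right), with the number of cells of each gene in bold on the diagonal. Cck with Gcg (9 and 9 cells) and Cck with Sct (9 and 7) lead in both groups, Tph1 with Sct (7 cells) is in WT only in this grid since no KO cell reached the limit for Tph1, and Sst has only Gip beside it.

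Cells with 2 or more of the 10 genes made up 35 of 242 WT endocrine cells (14.5%, 10.3 to 19.5) and 23 of 96 KO cells (24.0%, 15.8 to 33.7). The difference was 9.5 percentage points (Newcombe interval 0.55 to 19.7). Among cells with at least 1 of the genes 28.5% of WT and 39.0% of KO cells had several (10.5 points, -3.71 to 25.2, which includes 0). After thinning the shares were 18.7% of 171 WT and 23.0% of 87 KO cells (4.28 points, -5.72 to 15.4), and with a limit of 0.2% the difference was -1.19 points (-9.78 to 8.01). A difference in the share of cells with several hormones was therefore not detectable at matched depth. Cells with 3 or 4 genes numbered 7 in WT and 8 in KO. Cck with Gcg and Pyy made up 3 of the WT cells and 1 of the KO cells, and Gip with Cck and Sct made up 2 in each. The cells with 4 were Cck, Gcg, Pyy and Ghrl in WT, and Cck, Gcg, Sct and Pyy, and Cck, Sct, Nts and Ghrl in KO. Doublets, which also give cells with several hormones, were not removed. With the 10% of cells of highest doublet score left out the difference was 8.66 points (-0.85 to 19.4).

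At the limit on the share of UMIs, Cck and Gcg were found together in both groups, and Sct and Tph1 in WT alone. No KO cell reached that limit for Tph1. With any UMI counted after thinning, Sct was found in 58 of 90 WT and 10 of 22 KO cells with Tph1. The stretches upstream of the start of these 4 genes are shown. Each is 150 bases up to the annotated start, from RefSeq on GRCm38.p6, written 5′ to 3′ on the strand of the gene, which is the minus strand for all 4. Capitals mark the E-box CANNTG, which basic helix-loop-helix factors such as Neurod1 and Neurog3 can bind, and the TATA box TATAAA on either strand.
Cck, chr9:121495695-121495844: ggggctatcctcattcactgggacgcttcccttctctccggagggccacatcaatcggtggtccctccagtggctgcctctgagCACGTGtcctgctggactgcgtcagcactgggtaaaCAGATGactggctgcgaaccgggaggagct
Gcg, chr2:62483654-62483803: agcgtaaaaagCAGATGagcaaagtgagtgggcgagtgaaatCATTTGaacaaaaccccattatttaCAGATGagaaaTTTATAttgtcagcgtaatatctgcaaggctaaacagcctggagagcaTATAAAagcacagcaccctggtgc
Sct, chr7:141279134-141279283: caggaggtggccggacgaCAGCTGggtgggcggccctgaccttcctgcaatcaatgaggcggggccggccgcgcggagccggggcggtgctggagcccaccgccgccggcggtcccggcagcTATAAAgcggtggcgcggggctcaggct
Tph1, chr7:46672538-46672687: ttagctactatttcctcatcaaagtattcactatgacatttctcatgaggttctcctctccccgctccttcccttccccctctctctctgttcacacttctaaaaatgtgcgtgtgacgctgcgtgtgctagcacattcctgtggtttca
An E-box was found in these 150 bases in 7 of the 10 members and in 47.4% of 27025 genes, taking 1 start per gene, and was searched on both strands, where it reads the same. TATAAA on either strand was found in 2 members, Gcg and Sct, and in 8.08% of all genes. The element TGACGTCA, which responds to cyclic AMP, was found in Sst and in 1.44% of all genes. Tph1 has another annotated start, and its window shown here held none of the 3. These matches are letters in a window, and no binding was measured.

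Several transcription factors of the endocrine lineage differed in level between cells of different hormones. In the 30 WT and 5 KO cells positive for Tac1, Lmx1a, a factor of serotonin cells, was at 294 and 284 CPM. Fev, another, was at 412 and 512 CPM. In the 104 WT and 36 KO cells led by Tac1 or Tph1, Lmx1a was lower in KO, at 141 and 64.1 CPM (-1.14, -1.87 to -0.45). Fev was there at 174 and 215 CPM (0.31, -0.16 to 0.78). Isl1, a factor of several peptide cells, had no UMI in the cells positive for Tac1. It was at 499 CPM in WT and 295 CPM in KO Gip cells, and at 568 and 335 CPM in Sst cells. Etv1 was at 489 and 92.7 CPM in Gcg cells and at 257 and 80.5 CPM in Cck cells. Sst cells carried Hhex, known from somatostatin cells of the pancreas, at 341 and 156 CPM, and Iapp, the amylin gene, at 1817 and 1140 CPM. Neurog3, the factor that starts the endocrine fate, had 8 UMIs in the 4 WT Ghrl cells, all in 1 cell, and 5 UMIs in the 8 KO Ghrl cells. It also had 18 UMIs in 5 of the 36 Tac1-led KO cells and 7 UMIs in 3 of the 96 Tac1-led WT cells. In cells led by Tac1 or Tph1 its log2 ratio was 1.15, with an interval that includes 0 (-0.08 to 2.48). Over all endocrine cells, 14 of the 20 listed lineage factors had at least 50 UMIs, and 0 were at least 2-fold higher and 6 at least 2-fold lower in KO, beside 8.42% and 13.8% of all genes. Their median was -0.81, against -0.02 over all genes. The highest ratios were those of Fev (0.02) and Isl1 (-0.06), and the lowest those of Rfx6 (-2.47, 76 and 16 UMIs) and St18 (-2.22, 52 and 13 UMIs). Rfx6 is a winged-helix factor needed for endocrine cells of the gut and pancreas.

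Of 20 genes of the secretory granule, 17 had at least 50 UMIs, 0 were at least 2-fold higher and 10 at least 2-fold lower, beside 8.42% and 13.8% of all genes, with a median of -1.51. Pcsk1, the convertase that cuts Gcg and other precursors, was at 307 CPM in WT and 49.0 CPM in KO (-2.65, -3.08 to -2.24), and Ptprn, a granule membrane protein, at 106 and 16.1 CPM (-2.73). The highest ratios were those of Pcsk1n (-0.32) and Scg2 (-0.38), a granin that was at 1128 CPM in WT and 455 CPM in KO Cck cells. Pcsk1 had a like ratio in both sets of cells, -2.38 in cells led by Tac1 or Tph1 and -2.74 in cells led by another member. In mean UMIs per cell it was at 1.72 in WT and 0.861 in KO in the former, and at 1.05 and 0.473 in the latter, so it was lower per cell as well, in cells that held more UMIs in KO. Chga and Chgb are in this list and in the rule that chose the cells.

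Of 11 genes of serotonin handling, 8 had at least 50 UMIs, with 0 at least 2-fold higher and 4 at least 2-fold lower, beside the same 8.42% and 13.8% of all genes. The lowest were Slc18a2, a vesicular transporter of monoamines, at 102 CPM in WT and 10.1 CPM in KO (-3.33, -4.33 to -2.47), and Trpa1, a channel that senses irritants, at 156 and 25.3 CPM (-2.62). In cells led by Tac1 or Tph1, where Tph1 itself differed little, Slc18a2 was at 197 and 25.6 CPM (-2.94, -4.05 to -1.99), Slc18a1, the transporter of endocrine cells, at 268 and 94.8 CPM (-1.50, -2.08 to -0.96), and Trpa1 at 227 and 58.9 CPM (-1.94, -2.67 to -1.28). Slc18a2 had a UMI in 41 of these 104 WT cells and in 8 of the 36 deeper KO cells. The enzymes of the biopterin cofactor, Pts (0.49) and Qdpr (0.04), had the highest ratios. Piezo2, a touch channel, had no UMI in endocrine cells.

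Among 17 nutrient sensors 4 had at least 50 UMIs: Abcc8 (-0.17), Ffar1 (-0.29), a receptor of long fatty acids seen in Cck and Gcg cells, Slc5a1 (-0.62), the glucose transporter, and Ffar2 (-1.20), a receptor of short fatty acids, the single gene past 2-fold. Gpr142, Mc4r, Gcgr and Kcnj11 had no UMI. Among 15 further hormone genes 3 were measured, of which 2 were at least 2-fold lower. Both counts stand beside 8.42% of all genes at least 2-fold higher and 13.8% at least 2-fold lower. Iapp was at 50.1 and 54.1 CPM (0.11), Ucn3, a urocortin, at 67.8 and 11.8 CPM (-2.52), and Cartpt had 78 UMIs in WT and 2 UMIs in KO, a log2 ratio of -5.50 with a counting interval from -8.57 to -3.60. Nmu, Vip, Npy, Ppy, Penk, Uts2b and Nppc had no UMI.

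Genes whose level moved most like each member over the 242 WT endocrine cells were ranked by Pearson correlation of log2(1 + UMIs per 10000), among 4474 genes, and the same value over the 96 KO cells is given beside it. The cells of a group share a library and differ in depth, so these are descriptions. For Tac1 they were Chga (0.63 in WT and 0.76 in KO), Chgb (0.62 and 0.72) and Rab3c (0.60 and 0.67), and for Tph1 Chga (0.67 and 0.74), Krt7 (0.63 and 0.40) and Chgb (0.62 and 0.68). Gip went with Fabp5 (0.71 and 0.83) and Isl1 (0.60 and 0.63), whereas Abcc8, next in rank, was at 0.57 in WT and -0.07 in KO. Cck went with Scg2 (0.68 and 0.52), Rbp4 (0.62 and 0.45) and Fars2 (0.57 and 0.59). Gcg went with Etv1 (0.69 and 0.46), Cck (0.49 and 0.60) and Fars2 (0.47 and 0.48), and Pyy with Gcg (0.61 and 0.60), Etv1 (0.58 and 0.23) and Scg2 (0.34 and 0.30). Sct went with Myl7 (0.65 and 0.52), Gpx3 (0.45 and 0.28) and Tm4sf4 (0.45 and 0.19). For Ghrl the values were 0.34 at most in WT (Bet1l, 0.04 in KO, then Isl1 and Gcg), and for Nts (Git1, Fbxw2 and Napg) and Sst (Malrd1, Acot7 and Bet1l) they were under 0.40 in WT and at most 0.25 in KO. Between members, Tac1 and Tph1 were correlated at 0.37 in WT and 0.86 in KO, and Tph1 and Sct at 0.29 in WT and -0.13 in KO.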

How the data were processed

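The deposited values were raw UMI counts per gene and barcode, in 1 matrix per genotype made by the authors with Cell Ranger, version 4.0.0 per the file headers and 2.1.1 per the labels, which differ, on build mm10. The library kit was the 10x Genomics 3-prime v2 kit per the labels. The WT matrix held 134876816 counts over 15987 barcodes and the KO matrix 123794575 over 12763. Barcodes with at least 200 genes and at most 30% mitochondrial UMIs were kept, the limits of the study, with no doublets removed. A total of 57 barcodes occurred in both matrices, of which 0 WT and 1 KO endocrine cells carried one. Of the barcodes left out, 5 of 2892 WT and 9 of 4105 KO barcodes also met the rule for an endocrine cell.

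Levels are summed counts scaled to the total of the cells (CPM), for genes with at least 50 UMIs, with exact Poisson intervals, shares have exact Clopper-Pearson intervals, log2 ratios exact conditional binomial intervals and differences of shares Newcombe intervals, all at 95% (scipy 1.17.1, statsmodels 0.14.6). A count of 0 was taken to allow 3 counts. PCR and cell sampling beyond counting are not covered. The interval code was tested on simulated counts. Cells were thinned to 2000 UMIs without replacement. Doublet scores came from Scrublet in scanpy 1.11.5. Gene positions came from GENCODE M21 (27645 of 27998 identifiers matched) and upstream sequences from RefSeq on GRCm38.p6.

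The members, lists and alternatives were chosen with earlier results of these data known. Genes were named by rule: all members and both granins, from each of 5 lists the 2 highest and 2 lowest ratios, and per member the 3 genes of highest correlation, with at least 20 cells with a UMI in each matrix. Cells by leading gene, the sets built on it, Cartpt in them, and the factors and other genes given in cells positive for a member were added after values were seen, as were 2 of the 13 alternatives.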

Additional observations from a re-analysis of the deposited data

How the results depend on the processing

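No paired analysis was possible because each group came as 1 matrix whose columns carry no sample numbers, and for the same reason no replicate could be left out. Over 13 alternatives, 109 of 127 member log2 ratios kept their sign. Tph1 was below 0 in all 13 (-3.39 to -0.60), and Ghrl was above 1 in all but the next one named. Leaving out endocrine cells with over 2% of UMIs from markers of other types kept 3 WT and 47 KO cells, so its values rest on 3 cells: the log2 ratio of the share became 4.57, 3 members were higher, Sct was at 1.93 and Ghrl at -2.23, and Nts, Pyy and Sst gave no ratio.

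Without cells under 2000 UMIs the log2 ratio of the share was -0.15. The thinned setting left out the same cells and chose endocrine cells before thinning. Its share was therefore the same by construction and adds no further check. With the 0.2% limit the difference in cells with 2 or more genes was -1.19 points. The count of members at least 2-fold higher was 2 with thinning and 3 with equal weight of cells. In cells of 2000 to 10000 UMIs it was 4 (Cck, Nts, Pyy and Ghrl). The count at least 2-fold lower was 1 with equal weight. It was 0 in cells of 2000 to 10000 UMIs, where Tph1 was at -0.73 and Sct at -0.69. It was 3, with Tac1 added, with the 1% limit (Tac1 -1.03) and when members alone selected cells (-2.24). The settings of 2000 to 10000 UMIs and of members alone were chosen after seeing the data.

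The ratio of Gip turned to -0.088 with at most 15% mitochondrial UMIs, -0.030 without abundant genes in the total, -0.54 with thinning, -0.27 with equal weight, -0.10 without high doublet scores, -0.30 when members alone selected cells and -0.051 in cells of 2000 to 10000 UMIs. Gcg turned to -0.014 without high doublet scores and to -0.27, and Nts to -0.052, when members alone selected cells. Pyy, whose interval includes 0, kept its sign in 7 of 12, with -0.36 when members alone selected cells, -0.19 without high doublet scores, 0.33 with thinning and 1.33 with equal weight. Tac1 turned to 0.16 in cells of 2000 to 10000 UMIs. The cause was not tested.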
